A study of Homo sapiens with 26 samples.

Results

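Guides against cohesin, its loader and CTCF were followed through a sort of rhabdomyosarcoma cells for MYH, the myosin heavy chain of differentiated muscle. They were found by gene name, and the group itself was chosen by the MYH sort values of NIPBL, SMC3 and CTCF, which were known when it was proposed: of 9 names (NIPBL, MAU2, SMC3, SMC1A, RAD21, STAG1, STAG2, WAPL and CTCF) 7 were carried by the library pools, and MAU2 and WAPL were not analysed here. The 7 genes had 80 guides, 10 for each gene in each pool, of 10626 guides in 10 pools and 12342 guides in all 12 libraries of the series. CTCF was carried by 2 pools, CF1 and TF2, with 10 guides in each and no guide name shared. SMC3 and STAG2 were in CF1, NIPBL, RAD21 and STAG1 in CF2, and SMC1A in CF3. The exon scan and the test library carried 0 guides against these genes.

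The cells were RH4, an established alveolar rhabdomyosarcoma line that the labels describe as PAX3-FOXO1+. Each pool of guide RNAs for CRISPR knockout was put into RH4 cells, which were selected with a drug, fixed and stained at day 7 after infection, and split by flow cytometry into an MYH high and an MYH low fraction. Every sample used here therefore comes from the same line, carries the fusion and differs from its partner by label in the MYH gate. Each arm of each pool is 1 sample, so no difference given here has a replicate check or a test, and the SD beside a median is the spread over the 10 guides of a gene. The files hold guide counts from genomic DNA and no expression values, so the identity of the cells could not be checked against marker genes.

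Cohesin is a ring-shaped protein complex that holds sister chromatids together from replication to mitosis and folds chromatin into loops. SMC3 and SMC1A form the arms of the ring, RAD21 closes it, and a STAG subunit, STAG1 or STAG2, binds to it. NIPBL loads the ring onto chromatin and drives loop extrusion, MAU2 is its partner, and WAPL releases the ring. CTCF is a zinc finger protein that binds DNA and stops the moving ring, which places the ends of loops. Cells that divide need most of these proteins, while STAG1 and STAG2 can replace each other in part.

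The value of a guide is its log2 ratio in MYH high over MYH low cells of its counts scaled to 1000000 per sample (CPM, counts per 1000000), centred so that the median guide against the targets of its pool is 0. Total counts of the 8 samples that carried the 7 genes ran from 21819567 (CF3 MYH high) to 166032777 (CF2 MYH low). Single guides of these genes had 7859 to 458972 counts in a sample, and the exact binomial 95% confidence interval of a guide's log2 ratio reached at most 0.04 to either side. That interval covers counting error only, and the spread over guides was wider in every gene. Guides of the set PAX3_Fusion_DBD, which cut the fusion, had a median of 4.54 in CF2, 3.63 in CF3, 3.25 in CF1 and 2.92 in TF2, and mark how far a guide set could move in these sorts. The set FOXO1_fusion, which cuts the other part of the fusion, lay between 2.34 (TF2) and 4.23 (CF2), and PCNA, the sliding clamp of replication, at 0.13 in CF2, 0.20 in CF1, 0.36 in TF2 and 1.37 in CF3. The 10 negative-control guides of a pool had a median of 0.08 in CF1, -0.09 in CF2 and -0.10 in TF2. In CF3 they stood at 1.32, with every guide between 0.84 and 2.24, close to PCNA at 1.37. That pool thus stands apart, and its values for the fusion sets and PCNA cannot be set against those of other pools. The value of SMC1A depends on what it is centred on. In CF1 a single negative-control guide stood at 4.44, while the next highest was at 0.18.

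Guides against NIPBL, the cohesin loader, stood higher in MYH high than in MYH low cells of the 1 sort that carried them, and NIPBL was the 1 gene of the 7 to reach the size limit of 0.3 used here for a median log2 ratio. The median log2 ratio of its 10 guides was 0.51, with an SD over guides of 0.25, which is 1.43-fold, and all 10 lay above 0. The whole set held 9403 CPM of the MYH high sample and 7355 of the MYH low sample. In CF2 1.92% of 104 targets had a median at or above 0.3, 1.92% at or below -0.3, and 5.77% had every guide above 0. NIPBL was among the genes for which this group was put together with the sort values in view, so these values describe it and test nothing.

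The guides of NIPBL spread over a wide range. The guide sgRNA_11216 was highest, with 1162 CPM in MYH high cells against 731 in MYH low cells and a centred log2 ratio of 0.81. The guides sgRNA_11219 and sgRNA_11220 followed, at 1142 against 799.8 CPM (log2 ratio 0.65) and 925 against 653 (0.64). Those guides thus stood above the middle of their set, although they were not its most abundant. The most abundant guide, sgRNA_11217, had 2086 CPM in MYH high and 1544 in MYH low cells, a log2 ratio of 0.57. The guides sgRNA_11222, sgRNA_11214 and sgRNA_11221 had log2 ratios of 0.53, 0.50 and 0.45. The remaining guides were lower: sgRNA_11218 had 686 CPM against 639 (0.24), sgRNA_11215 had 1026 against 1051 (0.10) and sgRNA_11213 had 268 against 291 (0.02). Before centring the last 2 were slightly rarer in MYH high than in MYH low cells, and they lie above 0 because the targets of CF2 as a whole stood at -0.14 before centring.

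Of the NIPBL guides, 7 of 10 were at or above 0.3, against 9.33% of the 1115 target guides of CF2. The same 7 lay above the highest negative-control guide of the pool, at 0.42, which 4.66% of the target guides did. With any 1 guide left out the median was 0.50 or 0.53, the values of the middle guides. For 10 guides it can be nothing else, so this is no check on the value of NIPBL. The cell cycle kinase CDK1 was the 1 target of CF2 above NIPBL, with a median log2 ratio of 0.61 (SD 0.33). Next below were SMARCB1, a core subunit of the SWI/SNF remodelling complex, at 0.30 (SD 0.28), and SAP18, a subunit of the Sin3 histone deacetylase complex, at 0.29 (SD 0.20). The ranges over guides of all 4 targets overlapped, and with 1 sample per arm the order of their medians has no replicate check. Over all 983 target measurements in 10 pools, NIPBL had the sixth highest median.

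RAD21, the subunit that closes the ring, was measured in the same pair of CF2 samples as NIPBL and had a small positive median, above the upper quartile of the pool's targets at 0.07. The median over its guides was 0.10 (SD 0.19), or 1.07-fold, with 6 of 10 above 0. The highest RAD21 guide, sgRNA_10811, stood at 0.24, with 454 CPM in MYH high and 423 in MYH low cells. The lowest, sgRNA_10805, stood at -0.36, with 345 against 489. The other 8 guides lay between -0.11 and 0.21. Of 104 targets, 23 had a higher median and 80 a lower one. The direction depends on the centring: with none, the median was -0.04.

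Of the NIPBL guides, 7 of 10 lay above the highest RAD21 guide, and the median of NIPBL exceeded that of RAD21 by 0.41. Both sets of guides were counted in the same 2 samples, so the centring does not enter this difference. With 1 sort of this pool the difference between the loader and the ring subunit has no replicate check.

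STAG1, a STAG subunit that binds the ring, had a median log2 ratio of 0.02 (SD 0.26) in CF2, with 5 of 10 guides above 0 and 5 below. The STAG1 guides ran from -0.42 (sgRNA_10733, 381 CPM in MYH high against 560.4 in MYH low cells) to 0.43 (sgRNA_10741, 478 against 390). In CF2 7 targets had a wider spread over guides than STAG1 and 96 a narrower one, so its median stands for guides that moved in opposite directions. With a single guide left out the median ran from -0.10 to 0.15. It was -0.12 with no centring and 0.11 centred on the negative controls, so no direction is given for STAG1. The median of NIPBL exceeded that of STAG1 by 0.49, and 7 of 10 NIPBL guides lay above the highest STAG1 guide.

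STAG2, the paralog of STAG1, was measured in CF1 and had the narrowest spread of the 7 genes. The median over its guides was -0.01 (SD 0.09), from -0.16 (sgRNA_9187) to 0.13 (sgRNA_9186), with 4 of 10 above 0. In CF1 100 targets had a wider spread over guides and 6 a narrower one. The most abundant guide of the 80, sgRNA_9182, is one of these, with 3684 CPM in MYH high and 3965 in MYH low cells and a log2 ratio of -0.02. STAG1 and STAG2 lie in different pools, and their medians both sit within 0.03 of the middle of their pool.

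SMC3, which forms one arm of the ring, had guides slightly lower in MYH high than in MYH low cells of CF1. Its median log2 ratio was -0.12 (SD 0.14), or 0.923-fold, with 9 of 10 guides below 0. The lowest guides were sgRNA_10670 at -0.35 (554 CPM in MYH high against 753 in MYH low cells), sgRNA_10663 at -0.32 (343 against 456) and sgRNA_10666 at -0.30 (447 against 588). The 1 guide above 0 was sgRNA_10664, at 0.06 (395 against 403), and the other 6 lay between -0.15 and -0.04. The guides thus lean one way by small amounts, and the median did not reach the size limit, with 15 of 107 targets of CF1 lower still.

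In CF1 9.35% of targets had at most 1 guide that was not below 0, as SMC3 had, and 0% had a median at or below -0.3. The lowest negative-control guide of the pool was at -0.16, and 3 of 10 SMC3 guides lay below it, against 18.1% of the 1113 target guides of the pool. The median of SMC3 was below 0 with each centring, at -0.19 on the negative controls and -0.21 with none. Its neighbours in the order of medians were RTF1 and CXXC1 just above, both at -0.11, and TAF6 and MED8 just below, both at -0.12. The ranges of these over guides all overlapped that of SMC3.

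SMC1A, the other arm of the ring, was carried by CF3, the pool whose negative controls stood apart. The median over its guides was -0.04 (SD 0.31) against the other targets of the pool, with 4 of 10 above 0. They ran from -0.33 (sgRNA_10841, 441 CPM in MYH high against 616 in MYH low cells) to 0.70 (sgRNA_10837, 360.2 against 245). The second highest, sgRNA_10832, stood at 0.46 (401 against 322), and the other 8 lay at or below 0.18. The 2 highest guides were also the 2 rarest in MYH low cells. That CPM is the denominator of their ratio, so this is not a separate observation. All 10 SMC1A guides lay below the lowest negative-control guide of CF3, as did 98.9% of the 1072 target guides of that pool, and centred on those controls the median was -1.36. The mean over guides was 0.07, so no direction is given for SMC1A. In CF3 4.72% of 106 targets had a median at or above 0.3 and 0.943% at or below -0.3. SMC3 and SMC1A, which form the arms together, were measured in different sorts and are not compared.

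CTCF was measured in separate sorts with different guides. In CF1 the median over its guides was 0.17 (SD 0.15), or 1.12-fold, with 8 of 10 above 0. They ran from -0.06 (sgRNA_10896, 402 CPM in MYH high against 445 in MYH low cells) to 0.39 (sgRNA_10898, 776 against 629.7). The guides sgRNA_10894, at 0.37, and sgRNA_10900, at 0.27, came next, and the other 6 lay between -0.04 and 0.20. In TF2 its median was -0.005 (SD 0.21), with 5 of 10 guides above 0, from -0.29 (sgRNA1115, 594 against 778 CPM) to 0.34 (sgRNA1110, 861 against 729).

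The CTCF medians of both pools differed by 0.17, while the guide ranges overlapped over most of their length. Of the CF1 guides, 2 of 10 lay above the highest TF2 guide, and of the TF2 guides 4 of 10 lay below the lowest CF1 guide. Centred on the negative controls, CTCF had 0.09 in CF1 and 0.10 in TF2, so the difference between the pools depends on the centring. In CF1 6 targets had a higher median than CTCF, among them CRAMP1 at 0.19 and BPTF, a subunit of the NURF remodelling complex, at 0.18. In TF2 CTCF lay in the middle, with 56 targets above it and 51 below. Neither value reached the size limit, which 1.87% of the CF1 targets and 0% of the TF2 targets reached from above.

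Within CF1, CTCF, SMC3 and STAG2 can be set side by side in the same samples. Of the CTCF guides, 7 of 10 lay above the highest SMC3 guide, and the medians differed by 0.28. Against STAG2 6 of 10 CTCF guides lay above the highest guide, with a difference of 0.18. SMC3 and STAG2 differed by 0.10, and 3 of 10 SMC3 guides lay below the lowest STAG2 guide. The order CTCF, STAG2, SMC3 is that of the medians in 1 sort, and neighbours in it share much of their range.

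As a group, the 8 measurements did not move together. Their median was 0.009, from -0.12 (SMC3) to 0.51 (NIPBL), with 4 above 0 and 4 below. The median over all 983 target measurements was -0.001, with quartiles at -0.06 and 0.05. Without NIPBL the median of the other 7 was -0.005, and without SMC1A, which lies in CF3, it was 0.02. At or above 0.3 there was 1 of 8, where 1.83% of all target measurements were, and at or below -0.3 there were 0 of 8, where 0.509% were. These shares come from 18 and 5 targets, which became 9 and 39 with no centring and 23 and 111 centred on the negative controls. NIPBL stayed above 0.3 with both, and SMC1A passed -0.3 with the second. In CF3 the highest target median was 0.35 and the controls stood at 1.32, so all 106 targets of that pool passed -0.3 with the second. Among single guides, 13 of 80 (16.2%) were at or above 0.3 and 6 of 80 (7.50%) at or below -0.3, against 10.4% and 8.37% of 4372 target guides in the same 4 pools. Of the 13, 7 were NIPBL guides, 2 were CTCF guides in CF1, 2 were SMC1A guides, 1 was a CTCF guide in TF2 and 1 was a STAG1 guide.

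The abundance of the guides at the sort is another summary of the same counts, in which the arms are averaged and not divided. It was looked at after the values were seen. The abundance of a gene is the median over its guides of the mean CPM in both arms. Both arms weigh the same in it, so it need not be the abundance among all sorted cells. RAD21 guides had 428 CPM, against a median of 742 for the target guides of CF2, and 1 of the 104 targets of that pool was rarer. That 1 was CDK1, at 387. STAG1 guides, at 456, came close, with 3 targets rarer. NIPBL guides, at 792, did not share this, with 65 targets rarer. CDK1 and NIPBL had the highest median log2 ratios in CF2, at 0.61 and 0.51, and RAD21 had 0.10. Whether abundance bears on the ratio was not tested.

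In CF1 the SMC3 guides had 585 CPM and the CTCF guides 610.4, with 10 and 15 of 107 targets rarer, against a median of 744 for the target guides of the pool. STAG2, at 859, had 81 targets rarer. SMC1A had 567 in CF3, where the median was 699.96 and 23 of 106 targets were rarer. CTCF in TF2, at 745, lay at the middle of its pool, where the median was 743. So 5 of the 8 measurements were among the rarest 25% of their pool by abundance, a class that holds 25.2% of targets by its definition. The starting abundance of these pools was not analysed here, so loss of the cells that carry a guide and a low number of its copies in the library cannot be told apart. The 2 CTCF sets, one rare and one at the middle, are different guides in different pools, and the cause of their difference was not tested.

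The score named beta in the authors' deposited table is positive for guides enriched in MYH high cells. It is computed from the same counts and is not independent of the ratios. In the authors' deposited table NIPBL has a beta of 0.310, the second highest of 105 targets of CF2, with a false discovery rate of 0.167 in the column fdr and 0.0934 in the column from a Wald test. SMC3 has a beta of -0.108 in the authors' deposited table, with 7 of 107 targets of CF1 lower. Its p-value and false discovery rate are listed there at 0, and its Wald false discovery rate is 0.104. The authors' deposited table lists 10.3% of the CF1 targets at a rate of at most 0.05 with a negative beta and 0% with a positive one, so the entry of SMC3 is one of 11 such. For NIPBL the size of the ratio stood out and the authors' rate did not pass 0.05, while for SMC3 the ratio was small and the rate in the column fdr passed.

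For the other genes no false discovery rate in the authors' deposited table was at or below 0.05, where over all 10 pools 0.407% of 984 entries pass that rate with a positive beta and 3.15% with a negative one. CTCF in CF1 has a beta of 0.108 there, with 7 targets higher and a Wald rate of 0.124, and in TF2 a beta of -0.0008 and a Wald rate of 0.984. RAD21, STAG1, SMC1A and STAG2 have betas of 0.0231, 0.0207, 0.0312 and -0.0170 in the authors' deposited table. SMC1A is thus slightly above 0 by the authors' model and slightly below 0 by the median over guides.

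A wider list of 39 genes around cohesin was read in the same way: other parts of the cohesin cycle, other architectural factors, partners of NIPBL or CTCF, and condensin with SMC5/6, the related complexes. Of these, 15 were measured, 1 time each, and 0 of 15 reached 0.3 in either direction, where 1.83% of all target measurements did from above and 0.509% from below. Their median was 0.10, from -0.05 to 0.26, with 12 above 0, and the median over all target measurements was -0.001. The sign of each of these that lies above 0 in CF3 depends on the centring. So do the signs of SMC4 in CF2 and of YY1 and PATZ1 in TF3. The targets of those pools stood at -0.14 (CF2) and -0.08 (TF3) before centring. How many of the 15 lie above 0 thus depends on the centring. In the cohesin acetylation cycle, ESCO2, which acetylates SMC3, had 0.14 (SD 0.09) with 9 of 10 guides above 0, and HDAC8, which removes that mark, had 0.09 (SD 0.16) with 8 of 10. Both are small values next to that of NIPBL, and they come from CF1 and CF3.

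Of the condensin genes, which compact mitotic chromosomes, 8 were measured, with 6 above 0 and a median of 0.10 (-0.001 over all target measurements). SMC2, an arm of the condensin ring, had the highest, 0.26 (SD 0.29), in CF3. Centred on the negative controls every gene of CF3 falls by 1.32, so the sign of SMC2, and of each other CF3 gene given here with a value above 0, depends on the centring. NCAPH in CF2 had 0.23 (SD 0.21) and NCAPH2 the lowest, -0.05 (SD 0.11), with NCAPD3 at -0.03 in the same pool. In CF3 NCAPD2 had 0.15, NCAPG 0.10 and NCAPG2 0.09. SMC4, the other arm, had 0.10 (SD 0.22) in CF2, next to RAD21 in the order of medians, and its guides were rare as well, with 8 of 104 targets rarer. The sign of SMC4, like that of RAD21, depends on the centring.

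Among architectural factors, ZNF143, a zinc finger protein found at promoters and loop ends, had 0.20 (SD 0.13) in TF1, with guides from 0.04 to 0.45. The targets of TF1 stood at -0.14 before centring, so the side of 0 on which its lowest guide lies depends on the centring. YY1, which binds promoters and enhancers, had 0.06 (SD 0.23) and PATZ1 0.04 (SD 0.33), both in TF3 and both of a sign that depends on the centring. Of the partners, CHD8, a remodeller that binds CTCF, had 0.13 (SD 0.24), and MED12, a Mediator subunit, -0.0002 (SD 0.15) over 15 guides, both in CF3. The lists of meiotic cohesin, of release factors and of the cleavage of the ring had 0 measured genes.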

How the data were processed

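Per the labels' protocols, guide cassettes were amplified by PCR from genomic DNA before sequencing. The values deposited for each sample are raw read counts per guide. The submitters' processing notes name FastQC and MAGeCK; the sources used here give no version, trimming, guide sequence or genome build. The authors also deposited, per pool, a table of scores (beta and z) with p-values and false discovery rates per target. Of its columns, 2 without a name were not used.

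Counts were scaled to 1000000 per sample, a pseudocount of 1 was added, a guide needed at least 100 counts in its 2 samples together (all 80 had them), and log2 ratios were centred on the median target guide of the pool. Targets needed 3 guides. Reads without molecular identifiers are not independent molecules, and intervals cover counting error only. No test was made, since each arm is 1 sample. The genes and lists were chosen with earlier results of these data known. Named genes were all 7 genes, the listed genes, control sets, and the 2 targets next above and below each gene in its pool, given for NIPBL and in part for the others; CDK1 is one of these. A further gene was left out of the lists and is not reported here. All 22 measured gene names matched a current symbol in the RefSeq table for its assembly of the human genome. The median over guides was also computed on counts simulated with a narrower spread over guides than that of CF2. That checks the computation only, not the value of any gene. Alternatives were centring, summary, pseudocount, count minimum, size limit and pool CF3. Scripts ran in Python 3.11.15 with scipy 1.17.1, pandas 2.3.3 and numpy 2.4.6.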

Additional observations from a re-analysis of the deposited data

Results flagged for a closer look

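The negative-control guides of CF3 had a median log2 ratio of 1.32, far above those of the other 9 pools, which lay between -0.10 and 0.08. The gap to the next pool was 0.87 of the range over all 10 pools, and the cause of this shift was not tested. Of the cohesin genes this touches SMC1A, whose 10 guides all lay below those controls, as did 98.9% of the target guides of the pool; its part in the value of SMC1A was not tested.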

How the results depend on the processing

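NIPBL stayed above 0.3 under all 7 alternatives for single genes. With no centring the log2 ratios were 0.37 for NIPBL, -0.039 for RAD21, -0.12 for STAG1, 0.076 and -0.10 for CTCF in CF1 and TF2, -0.21 for SMC3, -0.10 for STAG2 and -0.18 for SMC1A. Centred on the negative controls they were 0.60, 0.19, 0.11, 0.089, 0.10, -0.19, -0.090 and -1.36 in that order, so that SMC1A passed -0.3. With the mean over guides NIPBL had 0.45, RAD21 0.038, SMC3 -0.15 and SMC1A 0.069. With the ratio of summed counts NIPBL had 0.49, RAD21 0.032, SMC3 -0.15, CTCF 0.13 in CF1 and 0.026 in TF2, and SMC1A -0.0055. With a pseudocount of 10, no count minimum and a minimum of 1000 the median of no gene changed sign. The median of NIPBL was 0.506 with the first and 0.513 with the others. Over all pools 18 targets were at or above 0.3 and 5 at or below -0.3. These counts were 9 and 39 with no centring, 21 and 3 with the mean over guides, and 26 and 3 with summed counts. Centred on the negative controls they were 23 and 111, and the 111 include all 106 targets of CF3. The counts were 43 and 26 at a limit of 0.2, and 6 and 1 at 0.5. Without CF3, a choice made after seeing the data, they were 13 and 4. No paired analysis was possible because each arm of each pool is 1 sample. Counting error per guide was smaller than the spread over guides, and no repeat of a sort was at hand to measure the error between sorts.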
